A study of Chlamydomonas reinhardtii with 12 samples.

Results

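Loss of CRR1 was set against its return in the green alga Chlamydomonas reinhardtii, by comparing the mutant crr1 with crr1:CRR1, the same mutant rescued with the full-length gene. The comparison used 6 of the 20 columns of a table of transcript levels, those of the series named TS1, which hold 3 stages of each strain. These are 6 of the 12 samples measured by RNA sequencing. The stages were light-oxic culture and 0.5 h and 6 h of dark-anoxic incubation, and both strains carry the crr1 mutation. Cultures were grown in acetate-containing TAP medium in the light. Aliquots of 100 ml were then sealed in bottles of 118 ml and stirred in a dark room, so light and oxygen were withdrawn together and cannot be told apart. The light-oxic aliquots were collected 10 min after removal from the main culture. The promoter of the rescuing gene and the number of transformants behind the rescued strain were not stated in the labels.

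CRR1, the copper response regulator, is a transcription factor of the family named after the squamosa promoter-binding protein. In this alga it is known to switch on genes when copper is lacking, and it is also known to be needed for part of the response to missing oxygen. Without light and oxygen the alga cannot respire or photosynthesise and turns to fermentation, which yields organic acids, ethanol and hydrogen. Transcripts for several of these routes are known to accumulate once oxygen has gone.

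The values are RPKM, reads scaled to a length for each gene model and to the depth of the library. They were compared as log2(RPKM + 1), so changes of models with low values are understated. A response is the dark-anoxic level minus the light-oxic level of the same strain, and a difference is the response of crr1 minus that of crr1:CRR1. Of 17301 gene models, 12236 reached 2 on this scale in at least 1 of the 6 columns. Each strain had 1 sample per stage, so no difference between the strains could be tested, and models are counted by size alone. Below, rose and fell mean a change of at least 1 log2 unit, a factor of 2. Some samples had a second column, in series TS2 for crr1 and TS4 for crr1:CRR1, matched to them by strain and stage. These repeats show how far columns of 1 strain and stage lie apart. Whether the 2 columns come from 1 culture was not stated in the labels. The sources do not pair the models with gene names, so the models carry their identifiers only, and the CRR1 transcript itself was not analysed here.

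The spacing of low values put an upper limit on the depth of each of the 6 columns, between 12001000 and 16213000 reads. In 7 of the 8 repeats, between 0 and 11 models of 12110 were lower and between 0 and 16 were higher by 2 log2 units in TS1. The 8th repeat stood apart. In the 6 h response of crr1:CRR1, 100 models were lower and 675 were higher in TS1 than in TS4. The 6 h results below take crr1:CRR1 from TS1.

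The lists of models that responded to dark anoxia overlapped in part between the strains. After 0.5 h, 102 models were up by at least 2 log2 units in crr1 and 84 in crr1:CRR1, which is 0.834% and 0.686% of those compared. The 63 models in both lists were 61.8% of the crr1 list and 75.0% of the crr1:CRR1 list. Down by as much were 149 models in crr1 (1.22%) and 56 in crr1:CRR1 (0.458%), with 49 shared, 32.9% and 87.5% of the lists. After 6 h, 151 models were up in crr1 (1.23%) and 212 in crr1:CRR1 (1.73%), and the 103 shared were 68.2% and 48.6% of the lists. Down were 126 in crr1 (1.03%) and 208 in crr1:CRR1 (1.7%), with 84 shared, 66.7% and 40.4%. Across the 12236 models, which are not independent replicates, the responses of the strains had r = 0.84 at 0.5 h and r = 0.837 at 6 h. At 6 h, 1 model was up by 2 log2 units in crr1 and down by as much in crr1:CRR1, and no model did the opposite. That model, Cre03.g209000.t1.1, rests on 1 read in crr1 at 6 h and 1 read in crr1:CRR1 in light.

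**Figure D1:**
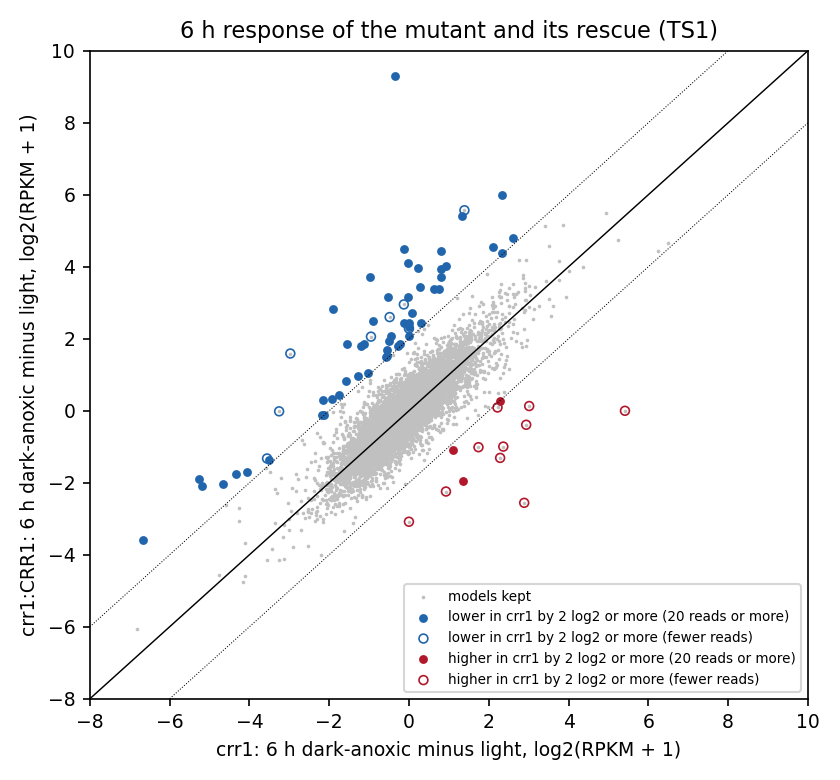
The 6 h response of crr1 (horizontal axis) and of crr1:CRR1 (vertical axis) in the TS1 columns, each as log2(RPKM + 1) at 6 h minus light, for 12236 gene models. Most models lie along the diagonal, 60 lie 2 units or more above it (blue, lower in crr1) and 13 below (red), and open circles have fewer than 20 reads in every TS1 column.

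After 6 h, more models had a lower response in crr1 than a higher one in the TS1 columns, and the reverse held with crr1:CRR1 from TS4. Responses are signed, so a lower response can be a deeper fall. The 6 h response was lower in crr1 by at least 2 log2 units, a factor of 4, for 60 models, 0.49% of those compared, and higher for 13, 0.106%. Where at least 20 reads stood behind a model in 1 of the 6 columns, 52 were lower (0.429%) and 3 higher (0.0248%). The repeat of crr1, which compares its TS1 and TS2 columns, had 1 lower and 3 higher among the same models. At the smaller size of 1 log2 unit, 257 models were lower (2.1%) and 165 higher (1.35%) between the strains, while the crr1 repeat gave 268 and 75. The median over all models was -0.05 between the strains and -0.18 in the crr1 repeat, and the counts of both include that shift. With crr1:CRR1 taken from TS4, 167 models were lower and 703 higher.

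**Figure D2:**
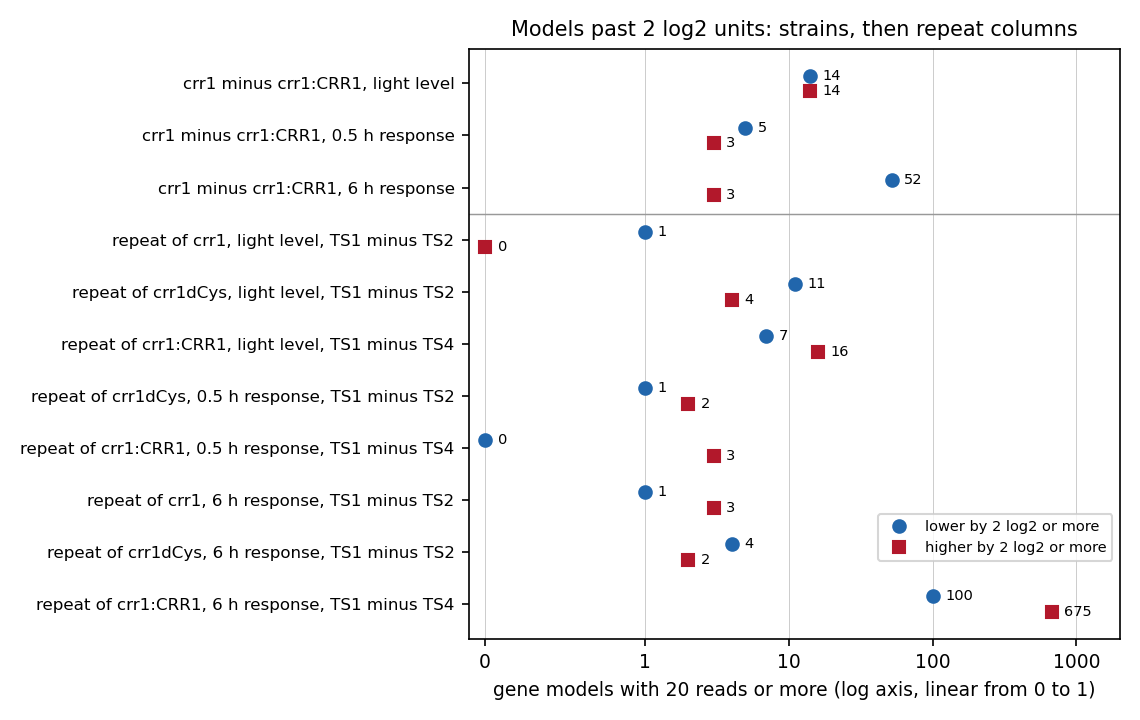
Number of models with at least 20 reads that were lower (circles) or higher (squares) by 2 log2 units or more, on a log axis that is linear from 0 to 1. The top 3 lines set crr1 against crr1:CRR1 in TS1, and the 8 lines under them set 2 series of the same strain against each other. The 52 models lower at 6 h exceed 7 of the 8 repeats, and the repeat of crr1:CRR1 at 6 h, with 100 and 675, exceeds them.

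Of the 52 models, 38 rose in crr1:CRR1 in TS1, where 8.2% of all models rose, against 6.34% in crr1. Of these, 28 changed by less than 1 log2 unit in crr1, 5 rose in both strains but less in crr1, and 5 fell in crr1. The other 14 fell in crr1, 7 of them in both strains. The 52 were chosen from these same columns by a lower response in crr1, which favours models that rose in crr1:CRR1. The share of 38 in 52 therefore describes the choice and is no enrichment over the 8.2%. The 38 were picked out after their values were seen, so their values in the TS1 columns of both strains only describe the choice.

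The 38 models had a median response of -0.03 in crr1 and of 2.99 in crr1:CRR1 in TS1. Their median level at 6 h was 3.08 RPKM in crr1 and 52.9 RPKM in crr1:CRR1. In light it was 3.7 RPKM in crr1 and 3.44 RPKM in crr1:CRR1, and 29 of the 38 differed by less than 1 log2 unit there. At 0.5 h, 36 of the 38 differed by less than 1 log2 unit, with a median response of 0.00 in crr1 and 0.03 in crr1:CRR1.

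Columns that did not choose these models gave differing values. In crr1 TS2 the 38 had a median 6 h response of -0.03, and 6 rose, where 7.94% of all models rose. In crr1:CRR1 TS4 the median was -0.15, and 4 rose while 14 fell, where 13.2% of all models rose and 20.3% fell. The TS4 column thus showed little of the accumulation seen in TS1 of the same strain and stage, and the reason was not tested. In the wild type CC-124, measured in TS2 alone, the median was 3.49 and 35 of the 38 rose, against 7.46% of all models. In crr1dCys, the mutant rescued with another form of CRR1, the median was 1.22 in TS1 and 1.37 in TS2, with 21 and 22 of the 38 rising, against 4.09% and 5.43% of all models.

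**Figure D3:**
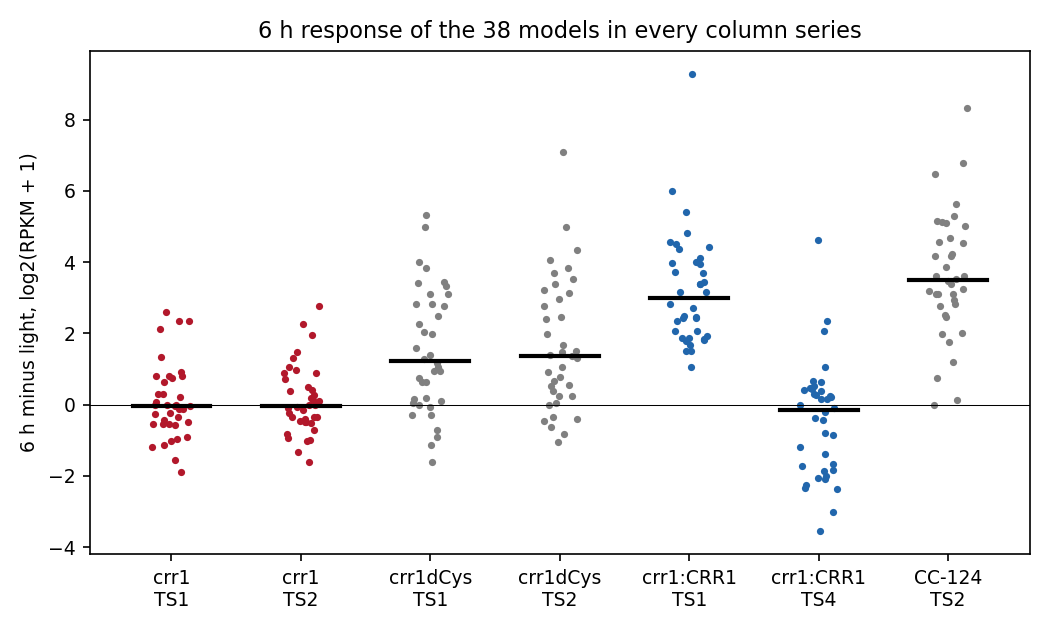
The 6 h response, as log2(RPKM + 1) at 6 h minus light, of the 38 models in each strain and column series. Each point is a model and each bar the median, which is -0.03 in both crr1 series, 2.99 in crr1:CRR1 TS1, -0.15 in crr1:CRR1 TS4 and 3.49 in CC-124.

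The model with the largest difference was Cre17.g700950.t1.1. In crr1 it had 0.264 RPKM in light and was listed at 0 at 0.5 h and 6 h, from 5, 0 and 0 reads. In crr1:CRR1 it had 1.58, 0.756 and 1609 RPKM, and 26946 reads stood behind the last value. The difference at 6 h was -9.63, a value that depends on the pseudocount because crr1 had no read. Its 6 h levels were 0.128 RPKM in crr1 TS2, 62.4 RPKM in crr1:CRR1 TS4 and 10497 RPKM in CC-124. Each crr1 column thus lay below each crr1:CRR1 column at 6 h, and TS4 was between them.

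Cre16.g651050.t1.1 was under 1 RPKM in every column of both strains but one. It had 1, 0 and 0 reads in crr1 across the stages, and 0, 0 and 225 reads in crr1:CRR1, where the last is 21.6 RPKM. In TS4 the rescued strain had 0.538 RPKM at 6 h. CC-124 had 107.0 RPKM at 6 h. The strain crr1dCys had 86.9 RPKM in TS1 and 2.94 RPKM in TS2 already in light, and 38.7 and 6.39 RPKM at 6 h.

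Cre08.g372200.t1.1 showed an early rise in both strains that continued in TS1 of crr1:CRR1 and not in crr1. Its levels in light, at 0.5 h and at 6 h were 32.4, 524.5 and 167.8 RPKM in crr1, and 48.8, 394.8 and 3193 RPKM in crr1:CRR1. The difference was 0.99 at 0.5 h and -3.67 at 6 h, with a counting error of 0.09 log2 units (1 standard error, which covers read counting only). In TS4 the rescued strain had 196.3 RPKM at 6 h, close to both crr1 columns with 167.8 and 112.8 RPKM. CC-124 reached 6284 RPKM at 6 h. The strain crr1dCys reached 2929.8 RPKM in TS1 and 2356 RPKM in TS2.

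Cre07.g346050.t1.1 was steady until 0.5 h in both strains. It had 49.6, 38.1 and 33.9 RPKM in crr1 and 59.8, 40.6 and 540.2 RPKM in crr1:CRR1. The difference at 6 h was -3.69, with a counting error of 0.06. Here TS4 had 28.0 RPKM at 6 h, below both crr1 columns.

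Cre02.g085450.t1.1 first fell in both strains and then recovered in crr1:CRR1. It had 125.2, 42.0 and 42.3 RPKM in crr1, and 89.8, 26.5 and 327.2 RPKM in crr1:CRR1. The rescued strain in TS4 ended at 29.2 RPKM, while CC-124 reached 2569 RPKM. Cre12.g490500.t1.1 also fell first in both strains, with 159.6, 26.0 and 72.3 RPKM in crr1 and 131.8, 20.4 and 481.0 RPKM in crr1:CRR1. It regained part of its level in crr1 by 6 h, and the rescued strain in TS4 had 33.3 RPKM then.

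The columns of the strains were also compared with all stages pooled. In 37 models, 0.302%, all 5 crr1 columns lay below all 6 crr1:CRR1 columns, and in 17 models, 0.139%, they lay above. Columns in random order would also give some such models. The share expected from random order is not given here, so these counts alone do not mark strain differences. A gap of at least 1 log2 unit between the pooled columns of the strains was left in 1 model, Cre10.g434350.t1.2. It had 0.104, 0.0898 and 0.351 RPKM in crr1, and 6.19, 7.50 and 38.3 RPKM in crr1:CRR1. The repeats had 0.104 and 0.0631 RPKM in crr1 TS2 (light and 6 h), and 5.21, 3.26 and 5.93 RPKM in crr1:CRR1 TS4. This model was low in crr1 in both series and also in light, unlike most of the 38. Pooling can miss models whose level changes between stages. Cre07.g346950.t1.2 was lower in crr1 than in crr1:CRR1 in every column of each stage. It is not counted, since crr1:CRR1 TS4 had 3.49 RPKM at 6 h and crr1 TS2 had 4.04 RPKM in light.

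**Figure D4:**
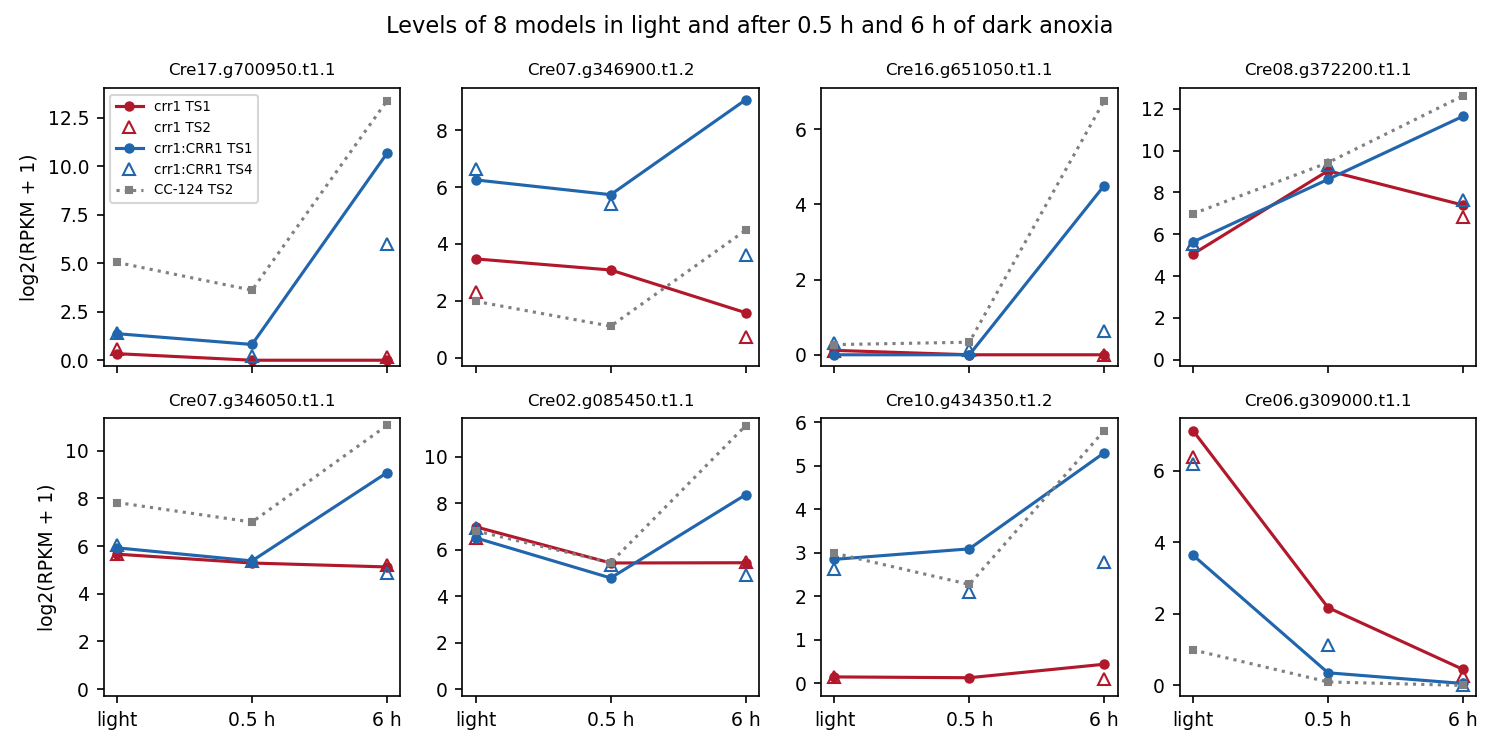
Levels of 8 models, as log2(RPKM + 1), in light and after 0.5 h and 6 h of dark anoxia, with crr1 in red, crr1:CRR1 in blue and CC-124 in grey. Lines join the TS1 columns (TS2 for CC-124), and open triangles are the repeat columns. At 6 h the blue triangle lies well below the blue line in the first 7 panels.

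Some of the 60 models were direct neighbours in the genome, a count given with no background. 41 of the 60 matched a locus in the RefSeq gene table of assembly version 5.5, and 6 of the 41 had a direct neighbour in the set. The pairs were Cre02.g084400 with Cre02.g084450, Cre07.g346850 with Cre07.g346900, and Cre05.g248400 with Cre05.g248450. Neighbours can share reads where models overlap, which was not tested.

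In the first pair, Cre02.g084400.t1.1 had 1.61, 6.48 and 5.54 RPKM in crr1 and 2.31, 6.29 and 139.4 RPKM in crr1:CRR1. Its neighbour Cre02.g084450.t1.1 had 24.9, 44.0 and 22.8 RPKM in crr1 and 25.2, 50.4 and 141.4 RPKM in crr1:CRR1. Both neighbours were alike in the strains until 0.5 h. In TS4 of crr1:CRR1 the pair had 5.19 and 8.69 RPKM at 6 h, where both differences turned positive, 0.27 and 1.55. In the second pair, Cre07.g346900.t1.2 had 10.1, 7.47 and 1.99 RPKM in crr1 and 75.3, 52.2 and 537.3 RPKM in crr1:CRR1. It was thus lower in crr1 than in crr1:CRR1 in light too. CC-124 had 2.94 RPKM in light, below both crr1 columns with 10.1 and 4.0 RPKM, and crr1dCys had 898.4 and 195.9 RPKM. In TS4 the rescued strain had 11.2 RPKM at 6 h, and the difference was 1.12 in place of -4.72.

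The third pair belongs to the 14 models that fell in crr1. Cre05.g248400.t1.1 had 181.9, 92.2 and 9.94 RPKM in crr1 and 28.7, 14.5 and 8.12 RPKM in crr1:CRR1. The strains were close at 6 h and apart in light, and the difference was -2.36. Among the 14, the light level was higher in crr1 by at least 1 log2 unit in 8. In TS4 the light level of Cre05.g248400.t1.1 in crr1:CRR1 was 134.6 RPKM, near the 181.9 and 150.5 RPKM of crr1. Cre06.g309000.t1.1 showed the same, with 137.0 RPKM in light in crr1, and 11.4 RPKM in TS1 and 71.0 RPKM in TS4 of crr1:CRR1.

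Few models had a 6 h response higher in crr1 by 2 log2 units in the TS1 columns, while 703 did with crr1:CRR1 from TS4. Of the 13, 10 had at most 17 reads in any of the 6 columns. The other 3 were Cre03.g198250.t1.1, Cre07.g353800.t1.1 and Cre02.g087500.t1.1, with differences of 3.32, 2.20 and 2.02. With crr1 from TS2 these were 1.18, 1.38 and 1.34, and with the light columns of each strain averaged they were 0.38, 0.99 and 0.50, all under a size of 2. Cre03.g198250.t1.1 had 1.05 RPKM in light in crr1 TS1, from 1 read, but 145.3 RPKM in TS2 of the same strain and stage. Cre02.g087500.t1.1 had 2.49, 4.42 and 16.1 RPKM in crr1 and 11.1, 8.91 and 13.6 RPKM in crr1:CRR1, so the strains were close at 6 h.

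After 0.5 h the strains were closer at a size of 2 log2 units. The response was lower in crr1 by at least 2 log2 units for 12 models (0.0981%) and higher for 18 (0.147%). With at least 20 reads 5 were lower (0.0413%) and 3 higher (0.0248%), while the repeats of crr1dCys and crr1:CRR1 at 0.5 h gave 1 and 0 lower and 2 and 3 higher. At this size the higher count was near those of the repeats, and the lower count was above them. The strain crr1 had no second column at 0.5 h, so its own repeat is missing here. The median difference over all models was -0.21 as deposited, 0.04 after median-of-ratios scaling and -0.01 after quantile normalization, and at a size of 1 log2 unit 277 models were lower (2.26%) and 67 higher (0.548%) as deposited. At the same size, the 0.5 h repeats of crr1dCys and crr1:CRR1 gave 33 and 33 lower and 43 and 108 higher. The counts between the strains include the median shift.

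Among the 0.5 h models, 2 neighbours were transiently high in crr1:CRR1. Cre07.g321800.t1.1 had 3.03, 3.25 and 0.706 RPKM in crr1 and 2.04, 20.8 and 0.236 RPKM in crr1:CRR1. Cre07.g321750.t1.1 had 2.78, 3.17 and 3.03 RPKM in crr1 and 1.61, 13.6 and 2.03 RPKM in crr1:CRR1. In TS4 the rescued strain was at 14.4 and 9.08 RPKM at 0.5 h, but started from 9.32 and 6.39 RPKM in light.

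In the other direction, abundant transcripts peaked in crr1. Cre01.g017700.t1.2 had 456.3, 3137 and 101.6 RPKM in crr1 and 312.8, 446.9 and 387.1 RPKM in crr1:CRR1. Cre08.g374100.t1.2 had 835.6, 3962 and 356.3 RPKM in crr1 and 859.7, 996.9 and 861.1 RPKM in crr1:CRR1. In TS4 the rescued strain also had a peak at 0.5 h, of 1611 RPKM and 2054 RPKM. At 6 h both models were lower in crr1 than in either crr1:CRR1 column. The step between 0.5 h and 6 h, which shares columns with both responses, was lower in crr1 for 51 models (0.417%) and higher for 16 (0.131%). With crr1:CRR1 from TS4 these counts were 150 and 742.

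In light, before any dark incubation, 19 models were lower in crr1 by at least 2 log2 units (0.155%) and 17 were higher (0.139%). These levels enter both responses. With at least 20 reads the counts were 14 and 14, 0.116% each, and the repeat of crr1:CRR1 in light alone gave 7 and 16. In the repeat columns, crr1 TS2 against crr1:CRR1 TS4, 3 of the 19 and 0 of the 17 still differed by 2 log2 units in the same direction. The TS1 and TS4 columns of crr1:CRR1 lay at least 1 log2 unit apart in 12 of the 19 and 14 of the 17.

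**Figure D5:**
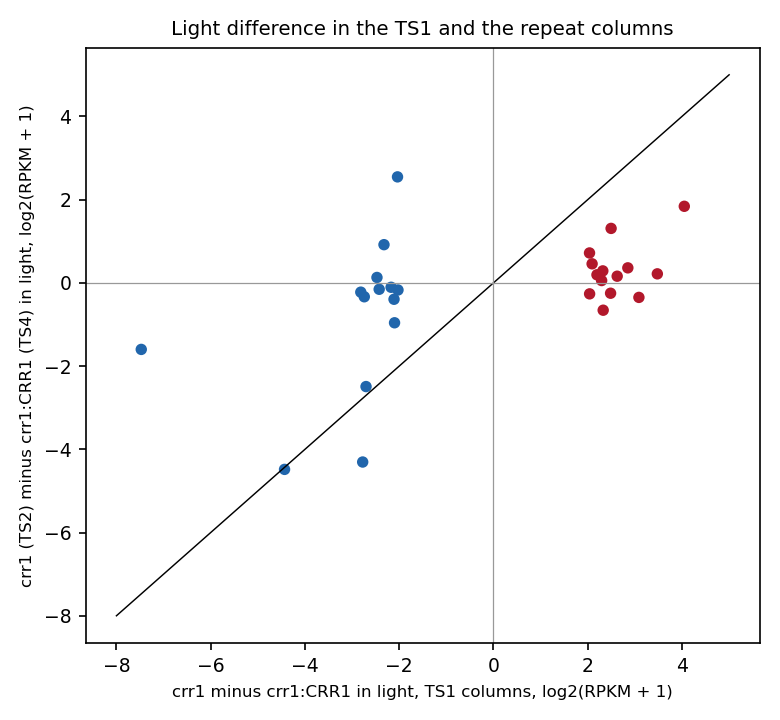
Difference of the light level, crr1 minus crr1:CRR1, as log2(RPKM + 1), in the TS1 columns (horizontal axis) and in the repeat columns TS2 and TS4 (vertical axis), for the 28 models with at least 20 reads past 2 units in TS1. Most points lie near 0 on the vertical axis, and 3 lower models stay beyond -2.

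Cre07.g346950.t1.2 was low in light in both crr1 columns. It had 3.52 RPKM in crr1 TS1 and 4.04 RPKM in crr1 TS2, against 96.7 and 111.7 RPKM in crr1:CRR1 TS1 and TS4. CC-124 had 10.5 RPKM, nearer to crr1. Cre12.g554100.t1.2 was high in crr1, with 50.2 and 44.1 RPKM in crr1, and 2.09 and 11.6 RPKM in crr1:CRR1.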

How the data were processed

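RNA sequencing of 12 samples gave 1 table, deposited by the authors, with 17301 gene models in 20 columns. The deposited values carry no unit name and were read as RPKM from their steps. Bowtie is named, per the submitters' processing notes. Build, annotation, counter and strand setting: not given in the sources used here. Overlapping or near-identical models are therefore uncertain. Columns were matched to strains by their abbreviations, and those of crr1 and crr1:CRR1 were read by elimination. Of 1603 weakly expressed models, 100.0% came out with an integer length (to 0.1 base) at the depth used, and 99.4% of models gave whole reads (tolerance 0.02 read). The spacing sets only an upper limit on depth, but read numbers found from the spacing alone do not depend on it. Models whose spacing was not found directly were resolved at the depth used. At the depth used, some lengths were short, with 2 bases for Cre02.g093200.t1.2 and 59 for Cre03.g198250.t1.1. The length used in the scaling is therefore uncertain.

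A pseudocount of 1 RPKM was added before the log2. Models needed log2(RPKM + 1) of at least 2 in 1 of the 6 columns. Of the models that reached it, 99.2% gave whole reads, and the rest were counted as reaching the 20-read minimum. Differences were counted by size with no test, in Python 3.11.15 with numpy 2.4.6 and pandas 2.3.3. The scripts were tested on simulated data. Repeat columns of a sample count as 1 replicate. The comparison and all lists were chosen with earlier results of these data known. The 20-read minimum, the 38 models, the comparison with stages pooled and the averaging of light columns were chosen after the values were seen. The rule for naming took the 15 largest 6 h differences and 5 others per comparison. Because no gene names could be matched (0 of 396 listed symbols, while 12666 models matched a RefSeq locus tag), fewer models are described, together with others singled out after their values were seen. The planned gene lists and promoter motif count were not run for the same reason.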

Additional observations from a re-analysis of the deposited data

Results flagged for a closer look

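Apart from Cre03.g209000.t1.1, 14 of the models described had 6 h responses of opposite sign in crr1 and in crr1:CRR1 in TS1. The 0.5 h response had opposite signs in 3. Cre03.g209000.t1.1, which rests on single reads, had 6 h responses of 2.89 in crr1 and -2.56 in crr1:CRR1. Each strain had 1 column, so none of these differences was tested, and a response near 0 can take either sign. The difference was -9.63 for Cre17.g700950.t1.1, with a response of -0.34 in crr1. It was -4.72 for Cre07.g346900.t1.2, -4.68 for Cre10.g426800.t1.2 and -4.61 for Cre16.g651050.t1.1. It was -3.69 for Cre07.g346050.t1.1, -3.40 for Cre02.g085450.t1.1 and -2.99 for Cre12.g490500.t1.1. It was -2.56 for Cre02.g084450.t1.1, -2.46 for Cre01.g017700.t1.2, -2.25 for Cre07.g346950.t1.2, -2.06 for Cre07.g346850.t1.1 and -1.23 for Cre08.g374100.t1.2. In the other direction it was 3.32 for Cre03.g198250.t1.1 and 2.20 for Cre07.g353800.t1.1, whose crr1 TS1 columns held at most 18 reads. At 0.5 h the difference was 1.38 for Cre03.g198250.t1.1, 0.92 for Cre02.g087500.t1.1 and -0.26 for Cre10.g434350.t1.2.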

How the results depend on the processing

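No paired analysis was possible because each strain had 1 sample per stage. Counts are given as lower and higher in crr1. The 6 h result depends on the crr1:CRR1 column. Its counts were 167 and 703 with TS4, 122 and 744 with crr1 TS2 and crr1:CRR1 TS4, and 24 and 132 with repeats averaged, against 60 and 13. With crr1 from TS2 they were 52 and 8. With light columns averaged they were 48 and 10, and at 0.5 h 9 and 12, against 12 and 18. Of the 38 models that rose in crr1:CRR1, 1 was among the 125 found with TS4, 1 among the 94 with TS2 and TS4, and 6 among the 14 with repeats averaged, but 34 were among the 37 with crr1 TS2.

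Differences of named models turned positive with crr1:CRR1 from TS4: Cre07.g346900.t1.2 to 1.12, Cre08.g372200.t1.1 to 0.27, Cre07.g346050.t1.1 to 0.66, Cre02.g085450.t1.1 to 0.46, Cre02.g084400.t1.1 to 0.27, Cre02.g084450.t1.1 to 1.55, Cre07.g346850.t1.1 to 2.99, Cre05.g248400.t1.1 to 0.48, Cre12.g490500.t1.1 to 1.25 and Cre10.g434350.t1.2 to 0.13. With crr1 TS2 as well, Cre07.g346900.t1.2 gave 1.42, Cre07.g346050.t1.1 0.72, Cre02.g085450.t1.1 0.97, Cre02.g084450.t1.1 0.96, Cre07.g346850.t1.1 2.72, Cre06.g309000.t1.1 0.05, Cre05.g248400.t1.1 0.41 and Cre12.g490500.t1.1 1.39. With repeats averaged, Cre07.g346850.t1.1 gave 0.33. The cause was not tested.

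The step between 0.5 h and 6 h gave 150 and 742 with TS4, against 51 and 16. At 0.5 h, TS4 gave 6 lower and averaging 3, against 12. In light, counts were 10 and 8 with TS4, 11 and 5 with TS2 and TS4, 5 and 2 with repeats averaged, and 11 higher with crr1 TS2, against 19 and 17.

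A pseudocount of 5 gave 32 and 4 at 6 h, 4 and 3 at 0.5 h, 3 and 9 in light, 27 and 1 for the step, and 22 of the 38. A pseudocount of 0.1 gave 30 higher at 6 h, 40 lower at 0.5 h, 44 and 28 in light, and 36 higher for the step. A filter at 4 in place of 2 gave 5 higher at 6 h, 6 and 5 at 0.5 h, 12 lower in light and 4 higher for the step. A size of 1 log2 unit gave 257 and 165 at 6 h, 277 and 67 at 0.5 h, 108 and 98 in light, 156 and 277 for the step, and 108 in place of the 38. A size of 3 gave 25 and 8, 4 and 4, 4 and 5, 21 and 6, and 16. The 20-read minimum left 3 higher at 6 h, 5 and 3 at 0.5 h, and 3 higher for the step. The share of lower among lower and higher models at 6 h was 82.2% as deposited, 80.6% after median-of-ratios scaling and 82.2% after quantile normalization. At 0.5 h it was 40.0%, 30.8% and 29.6%.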
